A study of Malus domestica with 2 samples.

Results

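The genes described here include apple gene models annotated as NAC, MYB, basic helix-loop-helix (bHLH), WRKY, homeobox, Dof, GRAS or MADS transcription factors. The other 146 were matched only by words for a homeodomain fold, which does not by itself show a transcription factor. For short, all of these genes are called factors below. They were found by words for these families in the annotation of a deposited table of 63541 gene models, or in the annotation of 2 deposited sheets of differing genes headed CP and LP. A gene model was kept if it had at least 1 mapped sequence in the table or an entry on a sheet, which left 331 of the 1105 gene models that the words matched. Of these 331 genes, 325 had a sequence and 6 had an entry on a sheet and no sequence. A protein annotated as Target of Myb, which acts in trafficking and is no transcription factor, was left out. The genes were thus chosen by their annotation, by their mapped counts and by the deposited sheets, so counts and sheets are given as descriptions.

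Messenger RNA came from the pedicels, or fruit stalks, of the apple cultivar Saika, which the series title calls self-abscising. The central pedicel and the lateral pedicel of the fruit cluster gave 1 library each, sequenced on a Roche 454 GS-FLX pyrosequencer. Both libraries share the cultivar and the tissue. The sampling time, the number of trees and any pooling are not stated in the labels. The central library held 18483 mapped sequences and the lateral library 18368, and per the file headers the counted units were trimmed contigs and not reads. With 1 library per group no difference has a replicate check.

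Transcription factors bind DNA and set how strongly other genes are transcribed. In Arabidopsis, NAC and MYB factors control secondary walls, lignin and flavonoid synthesis, KNOTTED-type homeobox factors keep meristem identity and shape pedicels, and MADS factors specify floral organs and fruit tissues. The abscission zone of the pedicel is the cell layer where fruits detach, and members of several of these families are known to act in its formation in tomato and Arabidopsis.

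The family names were first checked against both annotations. The table annotates genes mostly by protein domain, and 155 of the 331 genes carry the terms Homeodomain-related or Homeodomain-like there. Both terms name a helix-turn-helix fold that homeobox proteins share with MYB proteins and others. Of the 14 sheet genes with such a term in the table, 7 were annotated as MYB proteins on the sheets and 4 as homeobox proteins. The other 3 kept only the fold. They included a telomere repeat binding factor and MDP0000261067, which the LP sheet annotates as a P-loop nucleoside triphosphate hydrolase and which is therefore not shown to be a transcription factor. The 146 genes matched only by words for the fold are called homeodomain-fold genes below and are not counted as homeobox or MYB genes. The sheet annotation was used first for the other families.

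The factors, like the gene models as a whole, were sparsely sampled in both libraries. Of all 18337 gene models with a sequence, 24 had at least 10, and the largest count was 16. Of the 325 genes with a sequence, 160 had exactly 1 over both libraries, 88 had 2 and 77 had 3 or more, and 10 of these had at least 5. All of the sequences of 25 genes mapped to more than 1 gene model, so near-identical copies could not be told apart for them. More central than lateral sequences were found for 117 genes, or 36% of those with a sequence, against 36.2% of all gene models with a sequence. More lateral sequences were found for 123 genes, or 37.8%, against 35.4% of all gene models. The remaining 85 genes had equal counts. Over all the factors the central library held 307 sequences and the lateral library 321, a lateral share of 51.1% (95% exact interval 47.1% to 55.1%), beside 49.8% for all gene models. The interval covers counting error only. The log2 ratio of lateral to central sums was 0.07, and the median over the genes with a sequence was 0.01, as it was over all gene models with a sequence. In bulk tissue, fewer cells of a type and less RNA per cell cannot be told apart.

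**Figure D1:**
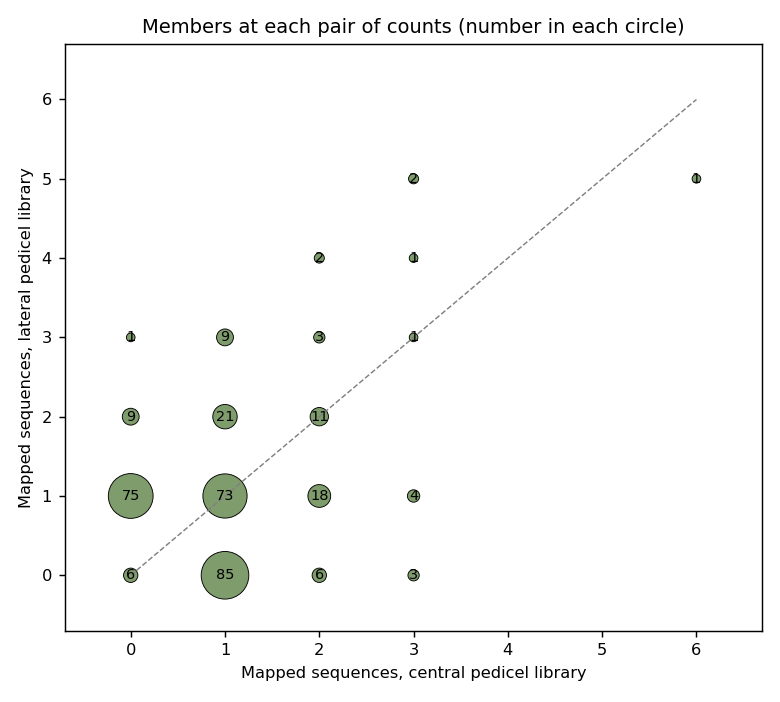
Mapped sequences in the central library (horizontal axis) and in the lateral library (vertical axis) for the 331 factors, with the number of genes printed in each circle, the circle growing with that number, and a dashed line at equal counts. The fullest circles are 1 central and 0 lateral (85 genes), 0 and 1 (75 genes) and 1 and 1 (73 genes), and 1 gene has 6 and 5.

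No factor was called different between the libraries (0 genes). The test was a two-sided Fisher exact test over the whole table, adjusted over gene models with at least 10 sequences and with a fold of at least 2 required. Of the 24 gene models tested, 0% were called, and 1 of the 24 is a factor. Without the minimum count, 325 factors were tested, none was called and 0 had an unadjusted p under 0.05. edgeR's exact test with assumed spreads also called 0. It was run only on the 24 gene models with at least 10 sequences, so it too tested 1 factor. The smallest unadjusted p of the Fisher exact test among the factors was 0.124, for MDP0000737128, a homeodomain-fold gene with 0 central and 3 lateral sequences. At such counts a missing call says nothing about a difference. The authors' deposited table, by Kal's Z-test on its own scaled values, has an FDR under 0.05 for 235 of the 325 factors with a sequence (72.3%), against 67.6% of all gene models with a sequence. Those 235 include all 160 factors whose entire evidence is 1 sequence.

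The 331 factors make up 30 of the 844 CP entries and 13 of the 741 LP entries, or 3.55% and 1.75% of each sheet. Of the 1105 gene models that the words matched, these entries are 2.71% and 1.18%. The CP sheet holds 1.33% of all gene models in the table and the LP sheet 1.17%. Of the 1092 gene models that the table's own annotation matched, the CP sheet held 22 (2.01%) and the LP sheet 8 (0.733%). The sheets chose some of the genes, so nothing is read from these shares. By family, bHLH factors had 8 CP and 2 LP entries, homeobox factors 7 and 2, Dof factors 4 and 0, and MYB factors 3 and 4. NAC factors had 1 and 2, WRKY and MADS factors 1 and 1 each, GRAS factors 1 and 0, and homeodomain-fold genes 4 and 1. The homeobox, MYB, NAC, WRKY and GRAS entries got their family name from the sheets alone. Their numbers thus follow in part from how the genes were named, and families cannot be compared by them. No Arabidopsis match occurred on both sheets (0 loci).

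**Figure D2:**
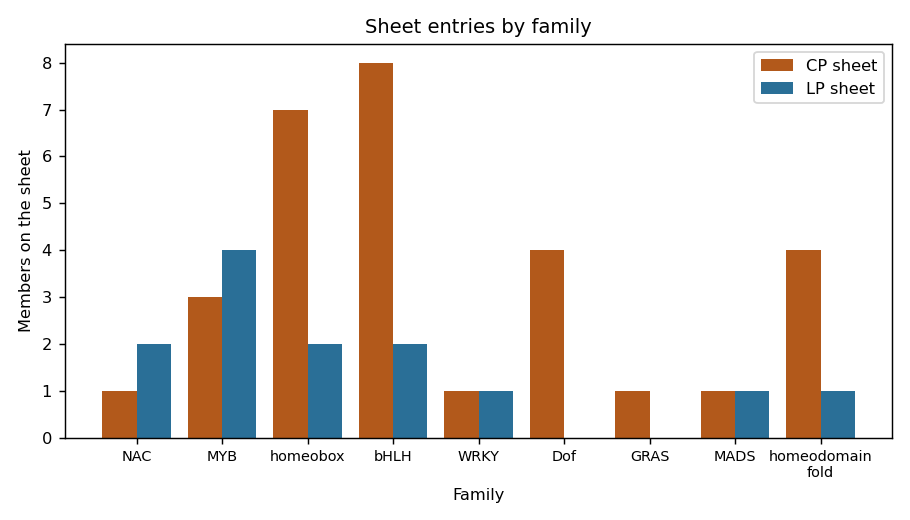
Number of entries (vertical axis, bars from 0) on the CP sheet and the LP sheet for each family of factors (horizontal axis). The bHLH factors have 8 CP and 2 LP entries and the homeobox factors 7 and 2, while MYB factors have 3 and 4. The homeobox, MYB, NAC, WRKY and GRAS entries got their family name from the sheets alone.

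The sheets and the counts were then set side by side. The 6 sheet genes without a sequence show that the contig counts are not the evidence behind every sheet entry, and the counts that NOISeq was run on are not stated. A deposited FDR therefore does not refer to the contig counts given beside it. Of the 30 CP genes, 15 had more sequences in the central library, 4 had more in the lateral library, 9 were equal and 2 had none. Over all CP entries, 34.0% had more central sequences. Of the 13 LP genes, 3 had more lateral sequences, 2 more central sequences, 4 were equal and 4 had none, and 31.4% of all LP entries had more lateral sequences. Together 18 of the 43 sheet genes (41.9%) had more sequences in the library of their sheet, against 32.8% of all sheet entries. The sheet genes had at most 8 sequences in all, so a difference of 1 sequence usually decided on which side a gene fell. A deposited log2 ratio exists for 6 of the factors. Its sign was positive for the 3 CP genes and negative for the 3 LP genes, although the first line of that file states lateral over central, so the sign is given as deposited and is not used as a direction. The deposited FDR values ran up to 9.60e-05 on the CP sheet and up to 3.45e-06 on the LP sheet among the factors. The sheet heading names NOISeq, and its version and settings are not stated.

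**Figure D3:**
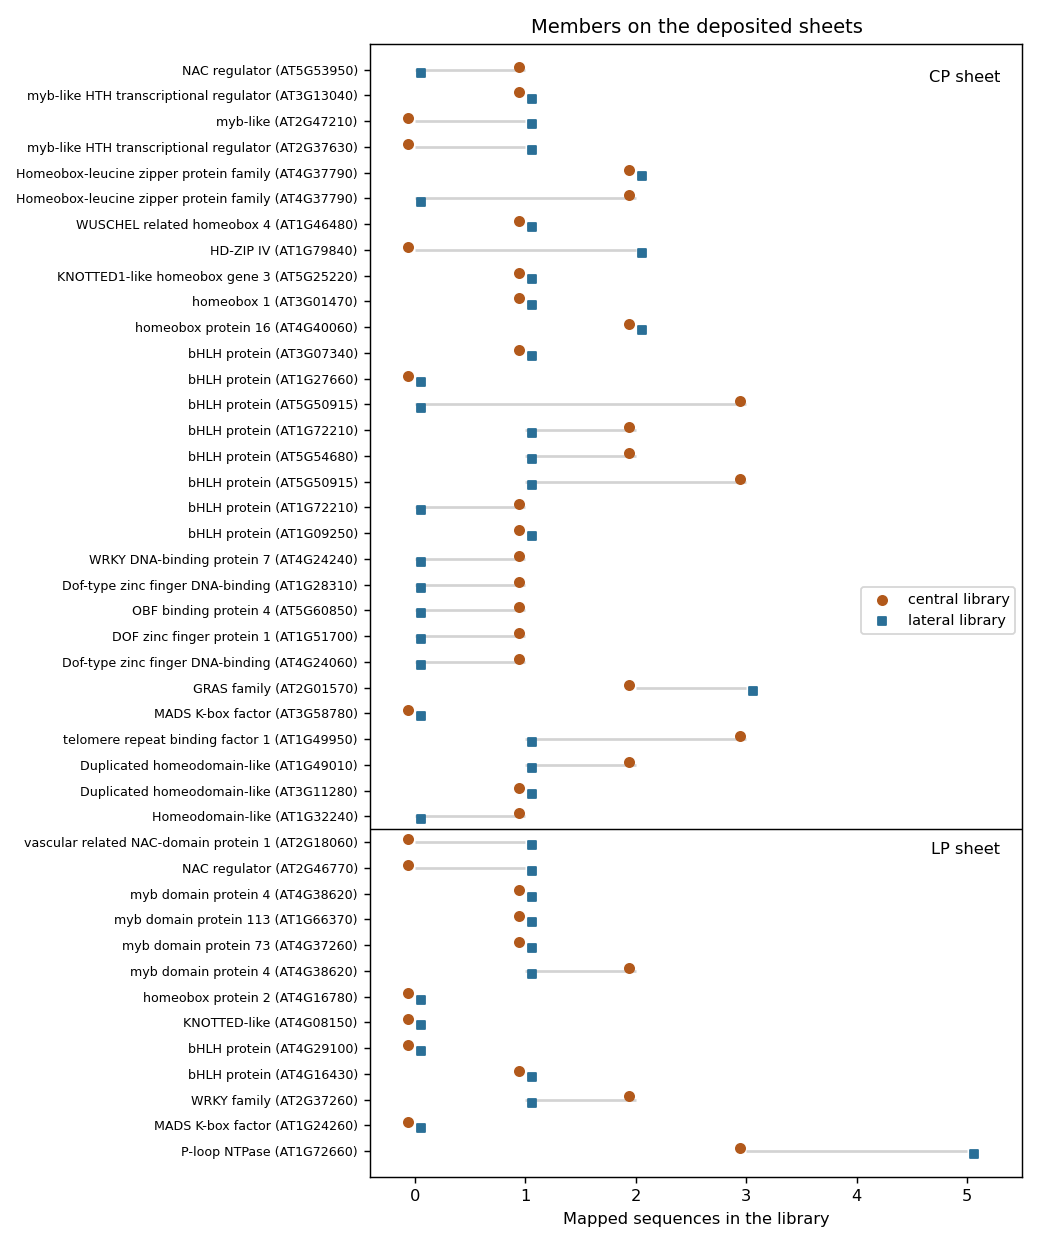
Mapped sequences (horizontal axis) in the central library (circles) and the lateral library (squares) for the 43 factors on the sheets, the CP sheet above the line and the LP sheet below it, each row named by the sheet's annotation and its Arabidopsis match. Symbols are shifted slightly so that equal counts stay visible. Most genes lie at 0 to 3 sequences, the gene farthest right is the P-loop protein with 3 central and 5 lateral sequences, and 6 genes have none in either library.

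NAC factors take part in organ boundaries and in the fibres and vessels of wood. Of 136 NAC gene models, 23 had a sequence, with 23 central and 22 lateral sequences in all. The most sampled was MDP0000180046, an NAM domain protein with 6 central and 5 lateral sequences, all uniquely mapped. Its model is 3867 bases long, against a median of 1107 bases for the NAC genes, and scaled by length it had 83.9 and 70.4 RPKM. MDP0000224592 had 2 and 1 sequences, and MDP0000440829 had 1 and 2. None of the 3 was on a sheet.

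The NAC genes on the sheets had 1 sequence each, in the library their sheet is named for. On the CP sheet, MDP0000135860 had 1 central and 0 lateral sequences (deposited FDR 2.56e-10). Its Arabidopsis match, AT5G53950, is known there as CUC2, which separates organs at their boundaries. On the LP sheet, vascular related NAC-domain protein 1, MDP0000176447, had 0 central and 1 lateral sequences (deposited FDR 1.09e-11). This factor is known in Arabidopsis as a switch for vessel formation. MDP0000381514, also on the LP sheet, had 0 and 1 as well (deposited FDR 3.45e-06). Its match, AT2G46770, is known as NST1, which turns on secondary wall synthesis in fibres. A count of 1 against 0 is within counting error.

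MYB factors in plants act largely on phenylpropanoid and cell fate genes. The 11 genes annotated as MYB held 11 central and 10 lateral sequences, and none had more than 2 in a library. Of these 11, 7 carry a homeodomain-fold term in the table and were named MYB only by a sheet. Other MYB genes could stand unrecognised among the homeodomain-fold genes. The counts therefore do not measure how well the MYB family was sampled. The LP sheet held 4 of the 11 genes. MYB domain protein 4, in Arabidopsis a repressor of the phenylpropanoid enzyme cinnamate 4-hydroxylase, had a pair of LP entries, MDP0000249611 with 1 and 1 sequences and MDP0000950559 with 2 central and 1 lateral. MYB domain protein 113, which activates anthocyanin synthesis in Arabidopsis, is MDP0000317257, with 1 sequence in each library on a model of 267 bases. MYB domain protein 73, MDP0000894463, also had 1 and 1. Thus 3 of the 4 LP genes were equal in the table and the other leaned to the central library.

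On the CP sheet, MDP0000422537 is a myb-like regulator whose match, AT2G37630, is known in Arabidopsis as AS1, a repressor of KNOTTED-type genes in leaves. It had 0 central and 1 lateral sequences (deposited FDR 2.10e-08). MDP0000319772, a myb-like factor matched to AT2G47210, also had 0 and 1, with a deposited log2 ratio of 2.88. MDP0000182154 had 1 in each library. None of the 3 CP genes had more central sequences. The most sampled MYB gene on neither sheet, MDP0000593593, had 2 and 2.

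Homeobox factors held 22 central and 21 lateral sequences over 17 genes with a sequence. Those on a sheet were named homeobox only by the sheet, so the counts do not measure how well the family was sampled. KNOTTED-type genes stood on both sheets. KNOTTED1-like homeobox gene 3, MDP0000323095, was on the CP sheet with 1 sequence in each library and a deposited log2 ratio of 2.13. The LP sheet held MDP0000637194, annotated as KNOTTED-like from Arabidopsis thaliana, with a deposited FDR of 1.30e-10. Its match, AT4G08150, is known in Arabidopsis as BREVIPEDICELLUS, whose loss shortens pedicels and which restrains floral organ shedding. It had no sequence in either library (0 and 0), so the counts give no value for it.

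Of the sheet genes, 6 are HD-ZIP proteins, homeobox factors with a leucine zipper, and other HD-ZIP genes could stand unrecognised among the homeodomain-fold genes. A pair of CP entries share the match AT4G37790, of which MDP0000172744 had 2 central and 0 lateral sequences and MDP0000163095 had 2 and 2. Homeobox protein 16, MDP0000859459, had 2 and 2, and homeobox 1, MDP0000599845, had 1 and 1. MDP0000233235, an HD-ZIP IV protein whose match AT1G79840 is known as GLABRA2, a regulator of epidermal cell fate, had 0 central and 2 lateral sequences and so leaned away from its sheet. Homeobox protein 2, MDP0000608923, known in Arabidopsis for its part in shade responses, was on the LP sheet with no sequence. WUSCHEL related homeobox 4, MDP0000203666, which maintains the vascular cambium in Arabidopsis, was on the CP sheet with 1 and 1. Of the 7 genes in this paragraph, 1 had more sequences in the library of its sheet.

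Among homeobox genes on neither sheet, the zinc finger homeobox (ZF-HD) gene MDP0000821959 had 3 and 3 sequences, or 153 and 154 RPKM. MDP0000191575 had 1 central and 3 lateral. The 9 ZF-HD genes with a sequence held 12 central and 9 lateral sequences in all.

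The bHLH factors, which bind DNA as dimers and often pair with MYB proteins, were the largest named family. Of 225 gene models, 79 had a sequence, with 87 central and 82 lateral sequences, a lateral share of 48.5% (95% exact interval 40.8% to 56.3%). The most sampled were MDP0000225680 with 3 central and 5 lateral sequences and MDP0000200355 with 2 and 4, neither on a sheet. Next came 8 genes with 4 sequences each, of which 3 had more lateral sequences, among them MDP0000143208 with 1 and 3, while 2 had more central sequences and 3 were equal. Of these 8, 1 was on a sheet. More central sequences were found for 31 bHLH genes and more lateral ones for 28.

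The 8 CP genes of the bHLH family included pairs of gene models with the same match. For AT5G50915, MDP0000225159 had 3 central and 0 lateral sequences and MDP0000410728 had 3 and 1, together 6 and 1. Those for AT1G72210 were MDP0000267178 with 2 and 1 and MDP0000672131 with 1 and 0. MDP0000323291, whose match AT5G54680 is known in Arabidopsis as ILR3, a regulator of metal and auxin-conjugate responses, had 2 and 1. MDP0000869137 and MDP0000124019 had 1 in each library, and MDP0000168695 had none. All 5 of the 8 with unequal counts thus had more central sequences, and they include both pairs with a shared match. Over all CP entries, 34.0% had more central and 16.2% more lateral sequences, so the sheet as a whole leaned the same way. The LP sheet held MDP0000401086 with 1 and 1 and MDP0000182782, which had no sequence although its deposited log2 ratio was -4.51, the farthest from 0 of the 6.

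WRKY factors are known for defence and development. None of the 10 gene models annotated as DNA-binding WRKY in the table had a sequence (0 of 10), and the 2 genes kept came from the sheets. In the table both are described as unintegrated and carry 1 domain identifier that 122 gene models share. Of these 122, 46 had a sequence, 37 central and 46 lateral in all, and the words found only the 2 on a sheet among them. The words therefore do not measure how well the WRKY family was sampled. WRKY DNA-binding protein 7, MDP0000130716, was on the CP sheet with 1 central and 0 lateral sequences and a deposited log2 ratio of 2.88, and its sequence was not uniquely mapped. MDP0000268364 was on the LP sheet with 2 central and 1 lateral sequences and a deposited log2 ratio of -2.43. Its match, AT2G37260, is known in Arabidopsis as TTG2, which acts in trichomes and in seed coat tannins.

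Dof factors, plant zinc finger proteins with roles in vascular tissue and light responses, held 17 central and 11 lateral sequences over 23 genes, a lateral share of 39.3% (95% exact interval 21.5% to 59.4%). The interval includes the 49.8% of all gene models. Sequences occurred in the central library alone for 13 Dof genes (56.5%), in the lateral library alone for 8 (34.8%) and in both for 2 (8.70%). Over all gene models with a sequence these shares were 26.6%, 26.1% and 47.2%. Of the 23 Dof genes, 19 had 1 sequence in all and so could not occur in both libraries. The most sampled, MDP0000828573, had 3 central and 0 lateral sequences and was on neither sheet. The 4 Dof genes on the CP sheet, among them DOF zinc finger protein 1 (MDP0000273251) and OBF binding protein 4 (MDP0000201509), each had 1 central and 0 lateral sequences.

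GRAS factors include the DELLA repressors of gibberellin signalling. Of 27 GRAS gene models 3 had a sequence. MDP0000662303, on the CP sheet (deposited FDR 5.39e-08), had 2 central and 3 lateral sequences and so leaned to the lateral library. Its match, AT2G01570, is the DELLA protein known as RGA in Arabidopsis.

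MADS factors held 17 central and 18 lateral sequences over 21 of 132 gene models, a detected share of 15.9% against 28.9% over all gene models. The share was 16.9% for NAC and 11.1% for GRAS gene models, so a low share was not particular to MADS factors. The median length was 720 bases for the MADS genes and 1353 for all gene models with a sequence. The part of length in the detected share was not tested. Both MADS genes on the sheets had no sequence. MDP0000314765, on the CP sheet, matches AT3G58780, known in Arabidopsis as SHATTERPROOF1, which forms the opening zone of the fruit. MDP0000574222, on the LP sheet, matches AT1G24260, known as SEPALLATA3, a floral organ identity factor. The most sampled MADS genes were MDP0000312382 with 2 and 2 sequences, MDP0000013331 with 2 and 1, and MDP0000326390 and MDP0000366022 with 1 and 2 each.

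The homeodomain-fold genes held 124 central and 152 lateral sequences over 146 genes, a lateral share of 55.1% (95% exact interval 49.0% to 61.0%), and this interval includes the share of all gene models. MDP0000261067, the P-loop protein, had 3 central and 5 lateral sequences and a deposited log2 ratio of -3.32. MDP0000132340 had 3 and 4 and MDP0000878701 had 2 and 4. On the CP sheet, telomere repeat binding factor 1, MDP0000239354, had 3 and 1. The other CP genes of this class were MDP0000333691 with 1 and 0, MDP0000241185 with 2 and 1, and MDP0000277813 with 1 and 1. For MDP0000241185 and MDP0000277813 only the sheet names the fold, and the table describes both as chaperones of the Hsp40, DnaJ type. The match of MDP0000333691, AT1G32240, is known in Arabidopsis as KANADI2, which sets the lower side of lateral organs.

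**Figure D4:**
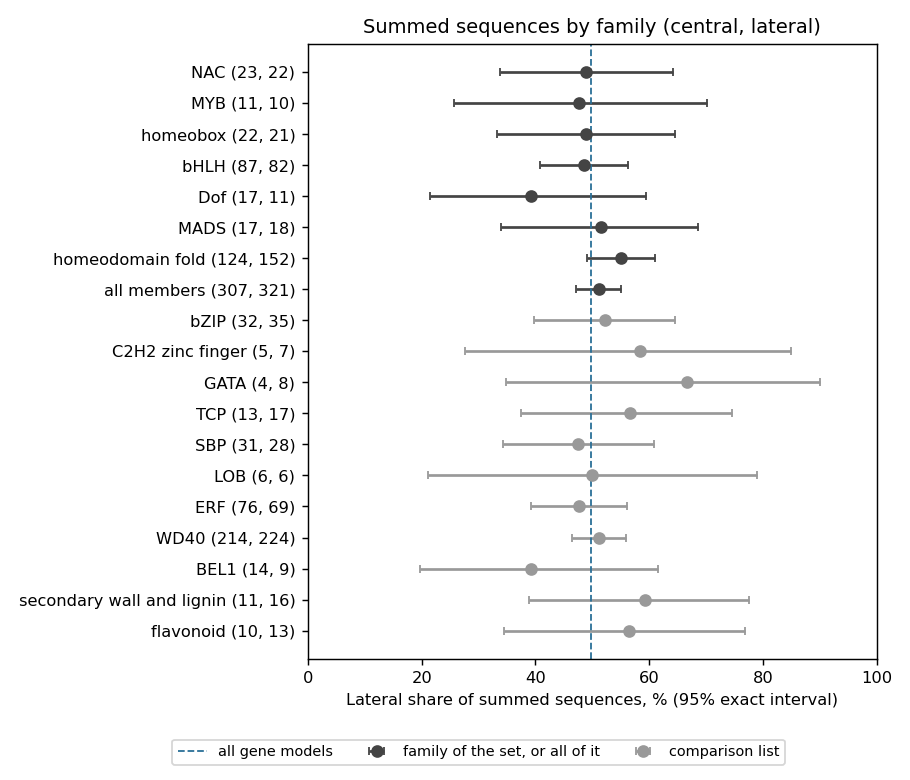
Lateral share of the summed sequences in percent (horizontal axis) with 95% exact intervals, for the factor families (dark) and for comparison lists (grey) with at least 10 sequences, the central and lateral sums in parentheses. The dashed line marks 49.8%, the share over all gene models, and every interval shown includes it.

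Secondary wall, lignin and flavonoid synthesis, which NAC and MYB factors control in Arabidopsis, were then followed by word lists. The words match protein families, so a listed gene need not be a target of these factors or a secondary wall gene. They were also searched in the annotation of the sheets, which exists only for sheet entries, so such entries match more readily. The secondary wall and lignin list held 11 central and 16 lateral sequences, a lateral share of 59.3% (95% exact interval 38.8% to 77.6%). It had 1 CP and 6 LP entries among 72 gene models. The CP entry was laccase 14, MDP0000242301, with 1 central and 3 lateral sequences. Of the LP entries, FASCICLIN-like arabinogalactan-proteins 11 and 12 each had 0 and 1, and cinnamyl alcohol dehydrogenase 9, a lignin enzyme, also had 0 and 1. Cellulose synthase like E1 had 0 and 2, FASCICLIN-like arabinogalactan 2 had 1 and 1, and a cellulose synthase matched to AT5G05170 had none. The LP sheet holds 1.17% of all gene models, and this list is too short to read a share from. Markers of xylem, which share members with this list, had 11 central and 15 lateral sequences and 1 CP and 5 LP entries, and their part in the sheet entries of the NAC genes was not tested. Flavonoid genes held 10 and 13 sequences and had 5 CP and 3 LP entries. Dihydroflavonol 4-reductase, MDP0000494976, which acts in anthocyanin synthesis, was on the CP sheet with 2 central and 3 lateral sequences.

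Partner proteins were counted in the same way. BEL1-type genes, homeobox partners of KNOTTED-type factors that the table annotates by the POX domain, held 14 central and 9 lateral sequences over 8 genes and had no sheet entry (0 of 16 gene models). WD40 repeat proteins, some of which join MYB and bHLH factors in a complex, held 214 and 224 and had 8 CP and 9 LP entries.

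Genes matched by words for other tissues had sequences in both libraries, those for pollen or seed included. The pollen or seed list rests partly on words such as cupin and late embryogenesis. These name protein families, so a match does not show pollen or seed tissue. Green tissue markers held 23 central and 25 lateral sequences, epidermis markers 24 and 28, phloem markers 2 and 2, and the pollen or seed list 55 and 57. Green tissue words matched 89 gene models, epidermis words 140 and pollen or seed words 264. The annotation of the sheets was searched too and exists only for sheet entries, so no share is read from these lists. On the sheets, green tissue markers had 9 CP and 19 LP entries, epidermis markers 11 and 3, and the pollen or seed list 23 and 10. Their part in the sheet entries of the factors was not tested.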

How the data were processed

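The authors deposited counts of mapped sequences, uniquely mapped counts and RPKM (counts scaled by gene length and by all sequences of the library) per gene model, per the file headers from trimmed contigs of each library. The p-value and FDR columns of that table are from Kal's Z-test and those of the sheets from NOISeq, per the file headers. The log2 ratios were deposited by the authors for 215 genes. No source used here names the aligner, the assembler or the release of the gene models. In the table, 13 further columns of library values were not used.

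Genes were matched by words, and the genes and lists were chosen with earlier results of these data known. Words of 4 comparison lists were corrected after wrong hits were seen. Named genes are all factors on a sheet or with a deposited ratio and, per family, up to 3 with the most sequences and at least 3, ties by identifier unless stated. A few on-list genes named for walls and flavonoids are examples of those on a sheet. Counts were tested by a two-sided Fisher exact test per gene model over the whole table with Benjamini-Hochberg adjustment over gene models with at least 10 sequences. A call needed a fold of at least 2 besides an adjusted p under 0.05, with 0.5 added to each count. The test was tried on simulated counts at the depth of these data and at a far greater depth. Its outcome was checked only at the greater depth, so the trial does not show that differences are found at these counts. Intervals are 95% Clopper-Pearson. A count of 0 allows up to 3 sequences, or 0.0162% of the central and 0.0163% of the lateral library. edgeR's exact test (edgeR 4.0.16, R 4.3.3) used assumed coefficients of variation of 0.2 and 0.4, and DESeq2 1.42.0 gave size factors only. Python 3.11.15, numpy 2.4.6, pandas 2.3.3, scipy 1.17.1 and matplotlib 3.10.9 were used. None of the identifiers matched the RefSeq gene table (0 matches), so no coordinates or sequences are given. Arabidopsis gene names beside a locus are background knowledge.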

Additional observations from a re-analysis of the deposited data

How the results depend on the processing

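Of 28 alternative values, 27 stayed near the reported value, that is, within 1.5 times for a count and within the 95% interval for the log2 ratio. They covered the count minimum, the test, scaling, pseudocount, unique sequences, deposited RPKM, the words for the families and the counting of sheet entries. The exception was the number of CP entries, which was 30 and became 19 when each annotation was counted once, since entries of a family, bHLH among them, share an annotation. The setting with each Arabidopsis match counted once, the one without homeodomain-fold genes, and the one with KNOX, HD-ZIP, ELK and K-box words added were chosen after seeing the data. The log2 ratio of the summed sequences, 0.07 as reported (interval -0.16 to 0.30), turned its sign to -0.11 without homeodomain-fold genes and was 0.15 for factors on neither sheet, all within that interval. Called factors numbered 0 in each setting. Only 1 factor reached the minimum of 10 sequences, so for the others the count at that minimum says nothing about stability. No paired analysis was possible because each group has 1 library, and for the same reason no library could be left out.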

Other observations

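Other transcription factor families were counted by words in the same way. The bZIP factors held 32 central and 35 lateral sequences and had 1 CP and 2 LP entries. One LP entry is abscisic acid responsive elements-binding factor 3, MDP0000248567, with 0 central and 1 lateral sequences. The SBP factors held 31 and 28, with a sequence for 23 of 36 gene models, and the TCP factors 13 and 17, with no sheet entry for either (0 entries). GATA factors held 4 and 8 sequences over 7 genes, with a 95% exact interval of the lateral share from 34.9% to 90.1%. Heat shock transcription factor A2, MDP0000243895, a regulator of heat responses in Arabidopsis, was on the CP sheet with 1 sequence in each library and a deposited log2 ratio of 2.07. A pair of nuclear factor Y subunits, B11 and B13, were on the LP sheet with no sequence.

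The deposited log2 ratios of 215 genes take 95 distinct values, and 160 genes share theirs with another gene. The value 2.88 of WRKY DNA-binding protein 7 (MDP0000130716) is identical to that of the myb-like MDP0000319772. Taken as linear ratios and divided by the ratio of the first gene listed, all 215 equal fractions of whole numbers with a denominator of at most 65, within a relative tolerance of 1e-11 in a search up to a denominator of 2000. The deposited counts, by contrast, are 1 and 0 for the first of these genes and 0 and 1 for the second.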
